A study of Mus musculus with 4 samples.

Results

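The semaphorins and their receptors, the plexins and neuropilins, were described in sorted cells of the mouse ascending aorta and aortic arch. Members were the protein-coding genes with a symbol of the form Sema3a to Sema7g or Plxna1 to Plxnd4, together with Nrp1 and Nrp2. The annotation names 31 such genes, and 28 of them had a row in the count table of 32948 genes. These were 18 semaphorins, 8 plexins and 2 neuropilins. Plxnb3, Sema4g and Sema6b were not analysed here. The rule uses names and no measured value, but it was set with earlier results of these data known.

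Semaphorins are extracellular guidance ligands that share a sema domain. Those of class 3 are secreted, those of classes 4, 5 and 6 span the membrane, and Sema7a is tethered to it by a lipid anchor. Plexins are the signalling receptors, with a cytoplasmic domain that switches off Ras and Rap GTPases. Most class 3 ligands need a neuropilin, which binds the ligand while an A-type plexin carries the signal, and neuropilins also bind VEGF. In the mouse embryo Sema3c steers cardiac neural crest cells into the outflow tract, and loss of Sema3c or of the receptor Plxnd1 disrupts formation of the aortic arch and outflow vessels.

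The 4 libraries came from Wnt1-Cre;Rosa26-mTmG mice, whose age was not given. All groups carry the Cre driver and the reporter. Cre under the Wnt1 promoter, active in the neural crest, switches the membrane reporter from tdTomato to GFP for good, so GFP marks cells with a history of Cre activity and tdTomato marks all cells without one. The groups were male and female GFP cells and male and female tdTomato cells, 1 library each; the male suspension pooled 2 samples and the female suspension held 1. Sorting used the 2 fluorescent proteins and no cell type marker, although the labels name the cells as vascular smooth muscle. Sex cannot be told apart from the suspension or its pooling. In such bulk libraries fewer cells of a type and less RNA per cell cannot be told apart.

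Library totals after rounding were 10094167 and 13678668 counts for male and female GFP cells, and 12837085 and 13911111 counts for male and female tdTomato cells. Levels are in CPM, that is, counts scaled to the library's TMM-adjusted total. Genes with 10 or more counts numbered 9517 and 12008 in male and female GFP cells, against 15669 and 16227 in male and female tdTomato cells. The GFP libraries also missed more genes: among 6791 genes that reached 10 CPM in each tdTomato library, 23.6% had at most 3 counts in male GFP cells and 9.39% in female GFP cells. In the other direction, among 3965 genes that reached 10 CPM in each GFP library, 0.555% and 0.479% had at most 3 counts in male and female tdTomato cells. The part of this lower detection in the low GFP values given here was not tested. All 8 smooth muscle markers were detected in each library, with summed levels of 13976 and 16573 CPM in male and female GFP cells, and 12069 and 12678 CPM in male and female tdTomato cells. Endothelial markers summed to 58.2 and 64.1 CPM in male and female GFP cells, against 280 and 434 CPM in male and female tdTomato cells, with Kdr and Egfl7 at 0 counts in both GFP libraries. Schwann markers summed to 109 and 257 CPM in male and female GFP cells, against 11.7 and 8.23 CPM in male and female tdTomato cells, and Sox10 had at most 1 count in any library. Fibroblast markers summed to 573 and 3787 CPM in male and female GFP cells, and 4354 and 3428 CPM in male and female tdTomato cells.

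A small set of secreted ligands made up most of the family's RNA in every library. Levels of different genes were compared as CPM per kilobase of the longest transcript. On that scale class 3 semaphorins held 70.3% and 75.1% of the family sum in male and female GFP cells, against 72.9% and 72.2% in male and female tdTomato cells. Sema3c and Sema3d together held 66.8% and 68.9% in male and female GFP cells, against 54.4% and 53.8% in male and female tdTomato cells, and 1 of them ranked first in each library. The receptor side was smaller. Plexins and neuropilins held 13.7% and 4.57% in male and female GFP cells, against 15.7% and 20.1% in male and female tdTomato cells. The 2 GFP libraries differed in their next member: Sema5a ranked 3 in male GFP cells at 16.2 CPM per kilobase, while Sema6d ranked 2 in female GFP cells at 9.87 CPM per kilobase.

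**Figure D1:**
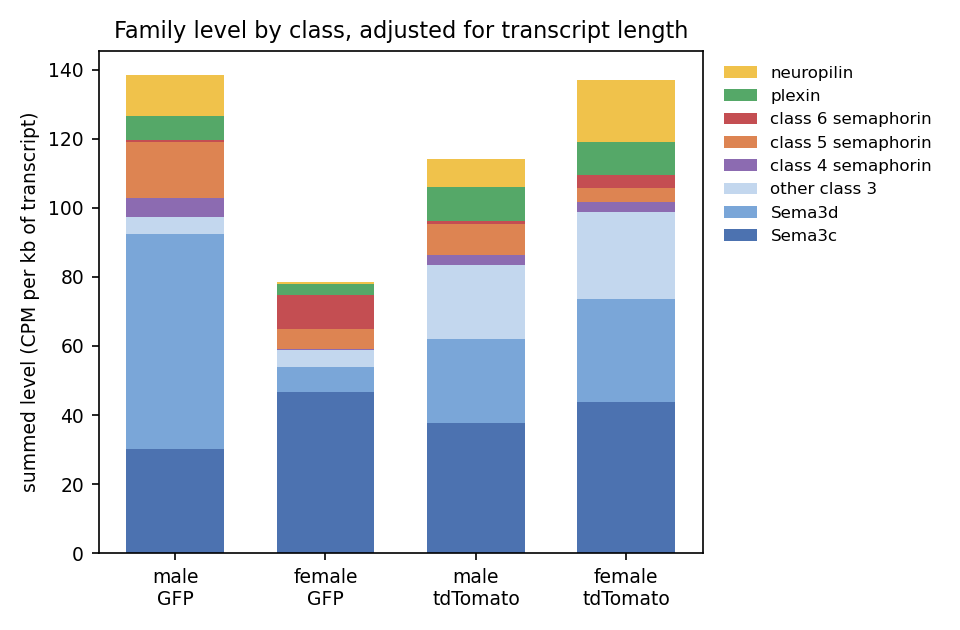
Summed CPM per kilobase of transcript for each class of the family (vertical axis), stacked for the 4 libraries; Sema3c and Sema3d are drawn apart from the other class 3 members, and Sema7a, with at most 1 count, is not drawn. The totals are 139 and 78.4 in male and female GFP cells and 114 and 137 in male and female tdTomato cells, and the blue class 3 segments make up over 70% of each bar.

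Of the 28 members, 15 reached 10 CPM in some library, and the highest level among the other 13 was 9.76 CPM. At most 10 counts were found in every library for 5 members. More than 3 counts were found for 14 members in each GFP library, against 19 in male and 22 in female tdTomato cells. In all 4 libraries 8 members were above 3 counts.

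**Figure D2:**
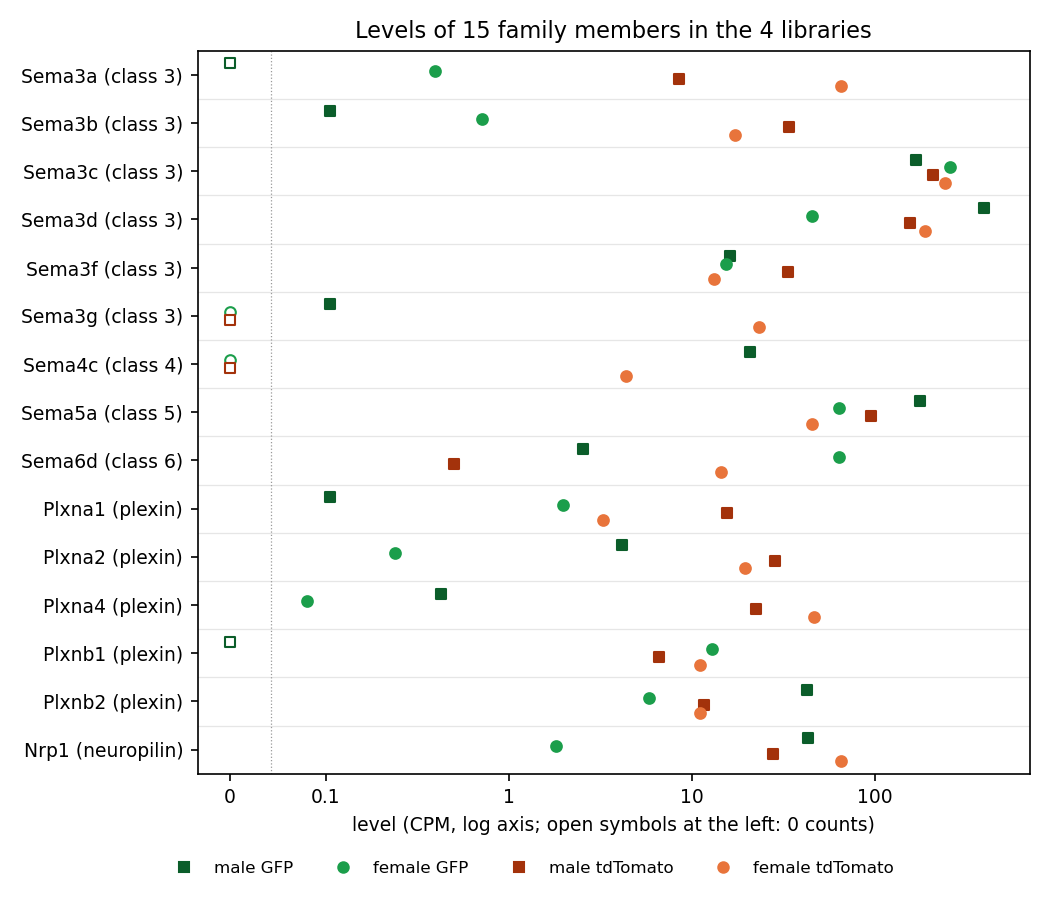
Level in CPM (horizontal log axis, with 0 counts as open symbols at the left) of the 15 members that reached 10 CPM in some library, 1 symbol for each library; squares are male and circles female, green GFP and orange tdTomato. The 4 symbols of Sema3c lie close together between 167 and 257 CPM, while for Sema3a, Sema3b, Plxna2 and Plxna4 both green symbols lie to the left of both orange ones.

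The comparison of GFP with tdTomato cells asks how the family differs between cells with and without Wnt1-Cre history. Enough counts for a test were found for 18 members. A level at least 2-fold lower in GFP cells of both suspensions was found for 7 of them, where 22.9% of the 15055 tested genes were. They were the ligands Sema3a, Sema3b, Sema4a and Sema6a, the plexins Plxna2 and Plxna4, and Nrp2. Sema3a, Sema3b, Sema4a, Sema6a and Plxna4 had under 10 counts in each GFP library. They passed the filter on low counts through the 2 tdTomato libraries alone, so their lower direction is partly set by the filter. This also enters the medians of the tested members, and the same filter was applied to the 15055 genes. Sema6d alone was at least 2-fold higher in both suspensions, where 5.17% of tested genes were. Sema3d and Sema4c were at least 2-fold apart in opposite directions, where 19.2% of tested genes were. Each suspension on its own gave 11 members lower and 4 higher in the male pair, with backgrounds of 50% and 21.5%, and 10 lower and 1 higher in the female pair, with backgrounds of 37.8% and 22.0%. The median log2 ratio over the tested members was −1.73 in the male and −1.71 in the female suspension, beside −0.998 and −0.269 over all tested genes. Over all 28 members the medians were −0.43 in the male and −0.79 in the female suspension. Rescaled without the filter, they were −0.47 and −0.77, beside −0.088 and 0 over all genes with a count. With libraries below 3 counts set to 3, the male median of the 28 was 0.20 and the female median −0.82. In the male pair 3 counts are 0.319 CPM in GFP and 0.216 CPM in tdTomato cells. Members at or below 3 counts in both thus get a ratio above 0 from depth alone. The 0.20 is therefore not read as a higher level in GFP cells.

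The 2 suspensions are the only replicates. With edgeR's quasi-likelihood F test and Benjamini-Hochberg adjustment over all tested genes, no member passed 0.05, and 0% of tested genes did (smallest adjusted p 0.577). At an unadjusted 0.05, edgeR picked 2 members, Sema3a and Sema4a, and 1298 genes in all. DESeq2 called 3 members lower in GFP cells, Sema3a, Sema3b and Plxna4, and none higher, with backgrounds of 7.36% lower and 0.325% higher. These calls rest on 2 pairs and on a spread that DESeq2 shares among genes, as edgeR also does. Sema3a, Sema3b, Sema4a and Plxna4 passed the filter through the tdTomato libraries alone, as given above.

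**Figure D3:**
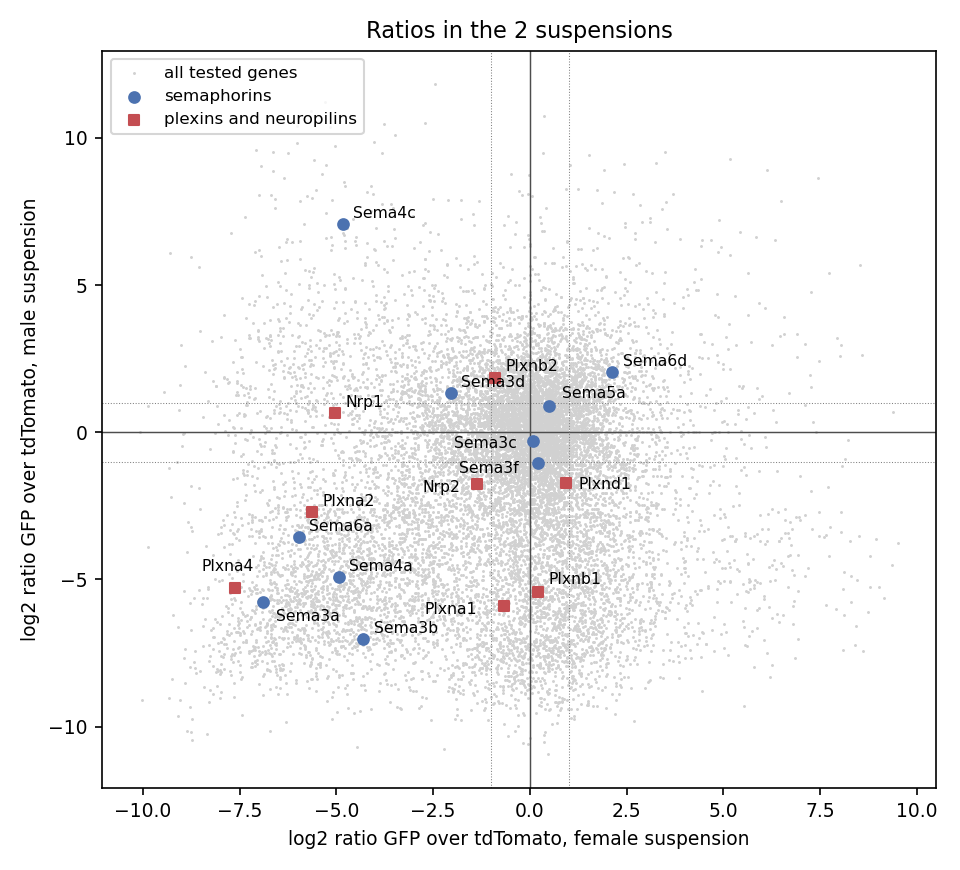
Log2 ratio of GFP over tdTomato cells in the female (horizontal) and male (vertical) suspension for all 15055 tested genes in grey and the 18 tested members in colour; dotted lines mark 2-fold. The 7 members beyond both dotted lines at the lower left are lower in GFP cells in both suspensions, Sema6d is the only member beyond both at the upper right, and Sema4c and Sema3d lie beyond both at the upper left, where the suspensions point opposite ways; Nrp1 and Plxnb2 also lie on that side.

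Among the secreted class 3 ligands, Sema3a and Sema3b were far lower in GFP cells, and the abundant Sema3c was close to equal. Sema3a, a repellent for axons that also patterns sympathetic nerves on vessels, had 0 and 0.396 CPM in male and female GFP cells, against 8.49 and 65.5 CPM in male and female tdTomato cells. It was at least 26.6-fold lower in male and 166-fold lower (95% interval 70.7 to 511) in female GFP cells, and both GFP values lay below both tdTomato values. The mean log2 ratio was −6.34 ± 0.79 (SD, n = 2 suspensions; edgeR adjusted p 0.577, DESeq2 adjusted p 0.0139). Sema3b, a secreted ligand that binds neuropilins, had 0.106 and 0.713 CPM in male and female GFP cells, against 34.1 and 17.1 CPM in male and female tdTomato cells. It was 320-fold lower (95% interval 57.2 to 12677) in male and 24-fold lower (95% interval 12.5 to 53.1) in female GFP cells, with a mean log2 ratio of −5.67 ± 1.92 (SD, n = 2 suspensions; edgeR adjusted p 0.746, DESeq2 adjusted p 0.0365). Here too the groups did not overlap. The share of all tested genes without overlap was not counted, here or below. At least 2-fold lower in GFP cells of both suspensions were 22.9% of them.

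Sema3c had 167 and 257 CPM in male and female GFP cells, against 207 and 241 CPM in male and female tdTomato cells. The groups overlapped, and the ratio was 1.24-fold lower (95% interval 1.17 to 1.32) in male and 1.07-fold higher (95% interval 1.02 to 1.12) in female GFP cells, so its direction differed between suspensions and also turned with the scaling. Sema3d, a relative of Sema3c that guides endothelial cells of the pulmonary veins in the mouse, had 392 and 45.5 CPM in male and female GFP cells, against 155 and 188 CPM in male and female tdTomato cells. Male GFP cells were highest and female GFP cells lowest, with both tdTomato values between them. The ratio was 2.54-fold higher (95% interval 2.4 to 2.68) in male and 4.13-fold lower (95% interval 3.78 to 4.53) in female GFP cells. Sema3f, a ligand that acts mainly through Nrp2, had 16.2 and 15.4 CPM in male and female GFP cells, against 33.4 and 13.2 CPM in male and female tdTomato cells. Only the male tdTomato value stood apart from the rest. Sema3g, a ligand made by endothelial cells, had 0.106 and 0 CPM in male and female GFP cells, against 0 and 23.2 CPM in male and female tdTomato cells. Its 347 counts in female tdTomato cells were nearly all that was found, and female GFP cells were at least 97.7-fold lower. It was too rare in the other libraries to be tested, as was Sema3e, the direct ligand of Plxnd1, which did not exceed 1.47 CPM.

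Of the membrane semaphorins, Sema4c, Sema5a and Sema6d reached 10 CPM in some library, and the others did not. Sema5a, which carries thrombospondin repeats beside its sema domain, had 175 and 63.7 CPM in male and female GFP cells, against 94.7 and 45 CPM in male and female tdTomato cells. Within each suspension GFP cells were higher, 1.85-fold higher (95% interval 1.72 to 1.99) in male and 1.42-fold higher (95% interval 1.28 to 1.57) in female cells, but the groups overlapped because both male libraries were above both female ones. The mean log2 ratio was 0.69 ± 0.27 (SD, n = 2 suspensions; edgeR adjusted p 1). It was −0.03 once the male GFP library was left out, which sets female GFP cells against tdTomato cells of both suspensions; the 2 pairs gave 0.88 in the male and 0.50 in the female suspension. Sema6d, which binds Plxna1 and shapes the heart tube in the chick, had 2.55 and 63.6 CPM in male and female GFP cells, against 0.504 and 14.4 CPM in male and female tdTomato cells. It was 5.07-fold higher (95% interval 2.12 to 13.9) in male and 4.4-fold higher (95% interval 3.78 to 5.14) in female GFP cells. The 2 ratios were close, with a mean log2 ratio of 2.08 ± 0.06 (SD, n = 2 suspensions), although the edgeR adjusted p was 1 and the male values rested on 24 and 7 counts in GFP and tdTomato cells. The male GFP level was below the female tdTomato level, so the groups overlapped. Without the female GFP library the log2 ratio was −0.20, and without the male tdTomato library −0.15. Both of these values set libraries of different suspensions against each other, between which Sema6d differed more than between colours, and the intact pairs gave 2.04 in the male and 2.13 in the female suspension. Schwann markers, given above, were also higher in GFP cells of both suspensions by their summed level, with 1 of 5 at least 2-fold higher in both. Their part in the Sema6d values was not tested.

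Sema6a, a transmembrane ligand of Plxna2 and Plxna4, had 0.426 and 0 CPM in male and female GFP cells, against 6.76 and 9.76 CPM in male and female tdTomato cells. It was 15.9-fold lower (95% interval 6 to 59.5) in male and at least 41.1-fold lower in female GFP cells, with a mean log2 ratio of −4.77 ± 1.70 (SD, n = 2 suspensions; edgeR adjusted p 0.731). Sema4a, a ligand studied in immune and endothelial cells, had 0.106 and 0 CPM in male and female GFP cells, against 7.77 and 4.68 CPM in male and female tdTomato cells. It was 73-fold lower (95% interval 12.8 to 2909) in male and at least 19.7-fold lower in female GFP cells, and it was the only member above 3 counts in both tdTomato libraries and at or below 3 counts in both GFP libraries. Sema4c, a ligand of Plxnb2, had 20.8 and 0 CPM in male and female GFP cells, against 0 and 4.35 CPM in male and female tdTomato cells. It was detected in 1 GFP and 1 tdTomato library from different suspensions. It was at least 96.2-fold higher in male and at least 18.3-fold lower in female GFP cells. Sema4d, the ligand of Plxnb1, was found in male tdTomato cells alone, at 3.02 CPM. Sema4b did not exceed 6 counts, and Sema4f, Sema5b, Sema6c and Sema7a did not exceed 1 count in any library.

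Among the plexins, the 3 tested A-type members were lower in GFP cells of both suspensions. Plxna4, the receptor through which Sema3a and Sema6a act on axons in the mouse, had 0.426 and 0.0792 CPM in male and female GFP cells, against 22.5 and 46.3 CPM in male and female tdTomato cells. These were 4 and 1 counts in male and female GFP cells, against 313 and 693 counts in male and female tdTomato cells. It was 52.9-fold lower (95% interval 20.4 to 195) in male and 585-fold lower (95% interval 105 to 23148) in female GFP cells, with a mean log2 ratio of −6.45 ± 1.65 (SD, n = 2 suspensions; edgeR adjusted p 0.622, DESeq2 adjusted p 0.0142). Plxna2, which marks migrating cardiac neural crest in the mouse embryo, had 4.15 and 0.238 CPM in male and female GFP cells, against 28.3 and 19.5 CPM in male and female tdTomato cells. It was 6.81-fold lower (95% interval 4.89 to 9.72) in male and 82.2-fold lower (95% interval 27.8 to 401) in female GFP cells (mean log2 ratio −4.18 ± 2.06, SD, n = 2 suspensions; edgeR adjusted p 0.982). For both genes every GFP value lay below every tdTomato value, for which no share of all tested genes was counted. Plxna1 had 0.106 and 1.98 CPM in male and female GFP cells, against 15.6 and 3.28 CPM in male and female tdTomato cells. It too was lowest in GFP cells, 147-fold lower (95% interval 26 to 5818) in male and 1.66-fold lower (95% interval 1 to 2.8) in female cells, and its groups did not overlap although the female ratio was under 2-fold. An antisense gene covers 10.71% of the exonic bases of Plxna1, and reads of the 2 cannot be told apart without strand. Plxna3 was found in female tdTomato cells alone, at 4.48 CPM. Markers of several other cell types were also at least 2-fold lower in GFP cells of both suspensions. These were 9 of 10 endothelial markers, all 3 lymphatic endothelial markers, which had 0 counts in both GFP libraries, 5 of 8 macrophage markers and 2 of 8 fibroblast markers. Of the last 2, Pdgfra had 0.426 and 0 CPM in male and female GFP cells, against 61.9 and 68.6 CPM in male and female tdTomato cells, and Col14a1 had 18.8 and 8 CPM in male and female GFP cells, against 128 and 98.8 CPM in male and female tdTomato cells. The remaining fibroblast markers were mixed. Dcn, Lum and Gsn were lower in GFP cells of the male suspension. In the female suspension GFP cells were the higher, at 2134, 715 and 823 CPM, against 1920, 447 and 758 CPM in tdTomato cells. Pi16 was higher in GFP cells of the male suspension, at 88.4 against 61.4 CPM, and lower in those of the female one. Dpt and Scara5 were lower in both. The part of these other cell types in the values of Sema3a, Sema3b, Sema4a, Sema6a, Plxna2, Plxna4 and Nrp2 was not tested.

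The B-type plexins did not divide by colour. Plxnb2, a receptor for Sema4c and other class 4 ligands, had 42.7 and 5.86 CPM in male and female GFP cells, against 11.7 and 11 CPM in male and female tdTomato cells. Male GFP cells stood apart from the other 3 libraries. They were 3.66-fold higher (95% interval 3.04 to 4.42) than male tdTomato cells, while female GFP cells were 1.88-fold lower (95% interval 1.42 to 2.51) than female tdTomato cells. Plxnb2 and its ligand Sema4c had their highest level in the same library, as did Sema3d and Sema5a. Nrp1, Plxna4, Sema3a and Sema3g were highest in female tdTomato cells. The share of all genes highest in either library was not counted, and Sema4c had 0 counts in female GFP and male tdTomato cells. Plxnb1 had 0 and 12.8 CPM in male and female GFP cells, against 6.62 and 11 CPM in male and female tdTomato cells. It had 0 counts in male GFP cells, and in the female pair the ratio was 1.16-fold higher (95% interval 0.93 to 1.45). Overlap with an antisense gene covers 2.68% of Plxnb1, and another covers 7.27% of Sema4c. Plxnd1, the endothelial receptor of Sema3e, did not exceed 2.69 CPM. Plxnc1, the receptor of Sema7a, was found in male tdTomato cells alone, at 8.42 CPM. Macrophage markers summed to 150 CPM in that library, against 32.7 CPM in female tdTomato cells, but they did not move together. Ptprc had 65.4 CPM in male and 0 CPM in female tdTomato cells, while Itgam had 0.504 CPM in male and 12.6 CPM in female tdTomato cells and Cd68 had 1.44 CPM in male and 7.02 CPM in female tdTomato cells. Their part in the Plxnc1 and Sema4d values was not tested.

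Of the neuropilins, Nrp1 was the abundant one, and its values followed neither colour nor sex. Nrp1, the co-receptor of Sema3a and of VEGF, had 43.2 and 1.82 CPM in male and female GFP cells, against 27.6 and 65 CPM in male and female tdTomato cells. Female GFP cells were far below the other 3 libraries. The ratio was 1.56-fold higher (95% interval 1.36 to 1.8) in male and 35.7-fold lower (95% interval 23.6 to 56.6) in female GFP cells, and the mean log2 ratio of −2.20 ± 4.02 (SD, n = 2 suspensions) has an SD larger than itself. Nrp2, the co-receptor of Sema3f and Sema3g, had 1.06 and 0.396 CPM in male and female GFP cells, against 3.96 and 1.27 CPM in male and female tdTomato cells. It was 3.72-fold lower (95% interval 1.88 to 8.18) in male and 3.21-fold lower (95% interval 1.16 to 11) in female GFP cells (mean log2 ratio −1.56 ± 0.27, SD, n = 2 suspensions; edgeR adjusted p 1), on 10 and 5 counts in male and female GFP cells.

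Promoters of members that differed the same way in both suspensions are shown as the sequence context of that division. RefSeq windows of the 250 bases before a gene start (GRCm38.p6) were at hand for 5 of the 8 such members, and the 3 genes with windows free of annotated exons are printed, with the farthest upstream one of each. Sema6d, higher in GFP cells, has its window at chr2:124089719-124089968 on the plus strand. Sema4a, lower in GFP cells, has its window at chr3:88461183-88461432 on the minus strand. Sema3a, lower in GFP cells, has its window at chr5:13396534-13396783 on the plus strand. Each is written 5′ to 3′ on the gene's strand, and capitals mark GGGCGG on either strand, the GC box bound by Sp factors.
Sema6d: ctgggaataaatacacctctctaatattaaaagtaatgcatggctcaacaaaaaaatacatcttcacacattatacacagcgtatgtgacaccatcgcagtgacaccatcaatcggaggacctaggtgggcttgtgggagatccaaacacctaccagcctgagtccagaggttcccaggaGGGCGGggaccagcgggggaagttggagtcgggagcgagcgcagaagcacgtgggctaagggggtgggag
Sema4a: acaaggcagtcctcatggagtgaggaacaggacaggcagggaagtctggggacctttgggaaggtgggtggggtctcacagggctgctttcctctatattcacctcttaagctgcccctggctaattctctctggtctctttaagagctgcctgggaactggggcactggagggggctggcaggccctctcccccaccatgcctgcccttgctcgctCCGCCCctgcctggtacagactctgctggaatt
Sema3a: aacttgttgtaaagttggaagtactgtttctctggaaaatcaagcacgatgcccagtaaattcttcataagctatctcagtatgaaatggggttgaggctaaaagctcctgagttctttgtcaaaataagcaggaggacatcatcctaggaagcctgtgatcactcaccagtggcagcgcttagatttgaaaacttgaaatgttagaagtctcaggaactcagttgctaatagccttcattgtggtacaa
The printed Sema6d and Sema4a windows hold 1 GC box each and the Sema3a window holds none. Sema6d and Sema4a each had a further window free of exons, and these held 0. Windows of Sema4a that overlap exons held 1 and 2. Of 33 windows of 23 members, 24 held GGGCGG on either strand, against 32.7% of the 32851 windows of all genes, with a median GC content of 63.6% in members and 52.4% in all windows. TATAAA was in none of the 33 windows and in 12.4% of all. CCAAT was in 6 (33.8% of all), GATAA in 4 (22.6% of all) and a CArG box, the motif of serum response factor, in 1 (1.5% of all), each on either strand. These are matches of letters and do not show binding.

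Male and female cells were compared within each colour. The 2 colours of a suspension are not replicates of a sex. The SDs and p-values of this comparison therefore hold no spread between suspensions of a sex. Sema5a was higher in male cells of both colours, with 175 CPM in male and 63.7 CPM in female GFP cells, and 94.7 CPM in male and 45.0 CPM in female tdTomato cells. It was 2.74-fold higher (95% interval 2.52 to 2.99) in male GFP cells and 2.1-fold higher (95% interval 1.92 to 2.31) in male tdTomato cells, and both male libraries lay above both female ones (mean log2 ratio 1.26 ± 0.27, SD, n = 2 colours; edgeR adjusted p 1). Sema6d was lower in male cells, 24.9-fold lower (95% interval 16.6 to 39.1) in GFP and 28.7-fold lower (95% interval 13.7 to 72.2) in tdTomato cells, with a mean log2 ratio of −4.51 ± 0.06 (SD, n = 2 colours; edgeR adjusted p 1). Its ratio between sexes was thus larger than its ratio between colours, and nearly the same in both colours. Sema3a was lower in male tdTomato cells, 7.72-fold lower (95% interval 6.37 to 9.43), and had 0 and 5 counts in male and female GFP cells. Over the tested members, 3 were at least 2-fold lower in male cells of both colours (Sema3a, Sema6d and Plxnd1), where 10.3% of tested genes were. At least 2-fold higher in both were 2 members (Sema5a and Nrp2), where 6.28% were. No member passed edgeR or DESeq2 at an adjusted 0.05, with 0 and 140 genes called in all (0.930% of tested genes for DESeq2), and none had an unadjusted edgeR p under 0.05, as 262 genes did. The median log2 ratio of male over female cells was 0.94 in GFP and −0.25 in tdTomato cells, beside −0.18 and −0.02 over all tested genes.

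The partners and effectors of the family were read from a list of 56 genes, of which 55 had a row and 43 were tested. At least 2-fold lower in GFP cells in both suspensions were 12 of these 43, beside 22.9% of all tested genes. At least 2-fold higher were 3 (5.17% of all), and apart in opposite directions 3 (19.2% of all). Medians of the log2 ratio were 0.15 in the male and −0.48 in the female suspension, beside −0.998 and −0.269 over all tested genes. With edgeR none passed an adjusted 0.05, and 6 of 43 had an unadjusted p under 0.05, as did 1298 of all 15055. DESeq2 called 4 lower (Kdr, Rhod, Rnd2 and Fyn) and 0 higher, beside 7.36% and 0.325% of all. Small GTPases downstream of plexins were among both the lower and the higher genes. Rnd2, which binds plexins, had 0 and 0 CPM in male and female GFP cells, against 16.8 and 12.9 CPM in male and female tdTomato cells. It was at least 52.5-fold lower in male and at least 54.3-fold lower in female GFP cells (DESeq2 adjusted p 0.0111). Rhoa, which drives actomyosin contraction and growth cone collapse, had 4.05 and 7.36 CPM in male and female GFP cells, against 27.3 and 60.1 CPM in male and female tdTomato cells. Rap1a, a substrate of the plexin GTPase-activating domain, had 4.58 and 25.3 CPM in male and female GFP cells, against 188 and 111 CPM in male and female tdTomato cells. In each of them both GFP values lay below both tdTomato values, again without a count over all tested genes. Rras2, a Ras-family GTPase, had 80.3 and 54.3 CPM in male and female GFP cells, against 18.5 and 15.1 CPM in male and female tdTomato cells, and was higher in both GFP libraries, 4.34-fold higher (95% interval 3.76 to 5.02) in male and 3.59-fold higher (95% interval 3.09 to 4.2) in female cells (edgeR adjusted p 1).

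**Figure D4:**
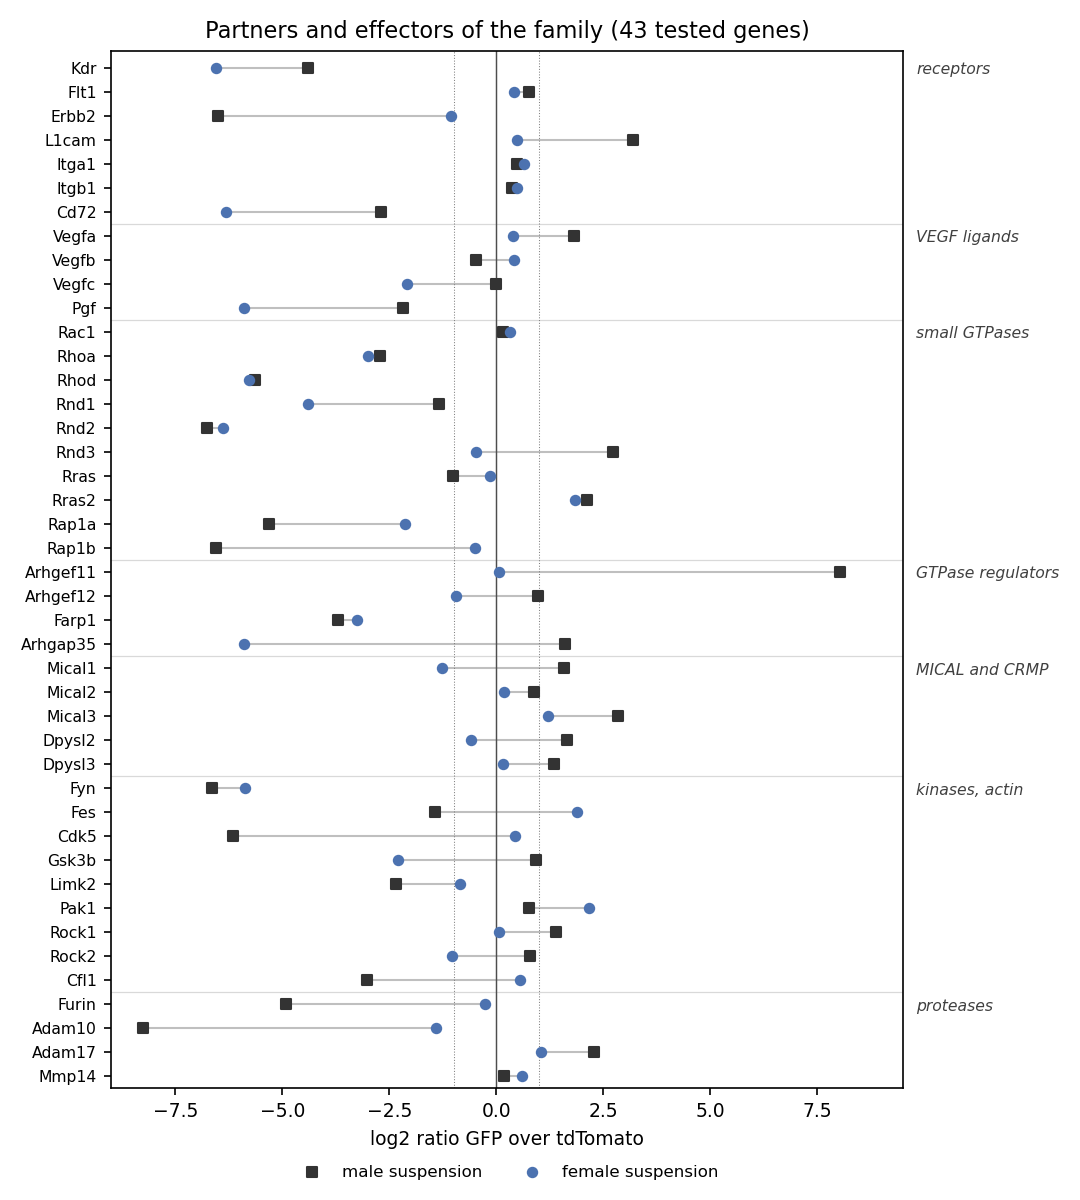
Log2 ratio of GFP over tdTomato cells (horizontal axis) in the male suspension (squares) and the female suspension (circles) for the 43 tested partners and effectors, by role; dotted lines mark 2-fold. Rnd2, Rhod, Fyn, Rhoa and Kdr lie to the left in both suspensions and Rras2, Mical3 and Adam17 to the right, while many long lines cross 0.

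Mical3, of the family of actin-oxidising enzymes that act below plexins, had 149 and 17.6 CPM in male and female GFP cells, against 20.5 and 7.49 CPM in male and female tdTomato cells. Of the enzymes that shed membrane proteins, Adam10 had 0 and 18 CPM in male and female GFP cells, against 47.7 and 48.3 CPM in male and female tdTomato cells, and Adam17 had 46.2 and 93.1 CPM in male and female GFP cells, against 9.42 and 45.5 CPM in male and female tdTomato cells. The 3 VEGF receptors use neuropilins as co-receptors, and of these Kdr and Flt4 had 0 counts in both GFP libraries while Flt1 did not. Kdr had 0 and 0 CPM in male and female GFP cells, against 3.17 and 14.6 CPM in male and female tdTomato cells, and was at least 9.91-fold lower in male and at least 61.4-fold lower in female GFP cells (edgeR adjusted p 0.577, DESeq2 adjusted p 0.0284). Flt4, too rare to be tested, had 0 and 0 CPM in male and female GFP cells, against 3.17 and 0.669 CPM in male and female tdTomato cells. Flt1 had 45.6 and 48.3 CPM in male and female GFP cells, against 27 and 36.1 CPM in male and female tdTomato cells, so that it was 1.68-fold higher (95% interval 1.46 to 1.94) in male and 1.34-fold higher (95% interval 1.19 to 1.5) in female GFP cells. Vegfa, the ligand of Kdr and Flt1, had 177 and 45.8 CPM in male and female GFP cells, against 50.5 and 34.8 CPM in male and female tdTomato cells. Its highest level was in male GFP cells, 3.51-fold higher (95% interval 3.21 to 3.84) than in male tdTomato cells. Plxnb2, Sema3d, Sema4c and Sema5a were also highest in male GFP cells. The share of all genes that were highest in that library was not counted.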

How the data were processed

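RNA from the 4 sorted libraries with a poly(A) tail was made into cDNA by template switching (SMART-Seq v4), expanded by PCR, tagged by a transposase and sequenced from both ends, per the labels' protocols. This chemistry keeps no strand. The submitters' processing notes name fastp, HISAT2, StringTie and the build GRCm39, without versions. The counting program and annotation release are not given in the sources used here. As deposited by the authors, the values are expected counts per gene, not scaled between libraries, and 59.4% to 69.1% of them were whole. They were rounded.

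Symbols, transcript lengths and exon overlaps came from a GRCm38 annotation matched by Ensembl identifier, since no table of the files' build was at hand. Genes passing edgeR's filterByExpr at a minimum of 10 counts were tested (15055 of 32948). The filter asks for 2 libraries, so 10 members (Sema3e, Sema3g, Sema4b, Sema4d, Sema4f, Sema5b, Sema6c, Sema7a, Plxna3 and Plxnc1) were not tested. The test was edgeR 4.0.16's quasi-likelihood F test (R 4.3.3) with TMM factors (0.931 and 0.923 for male and female GFP cells, 1.08 and 1.07 for male and female tdTomato cells) and terms for colour and suspension. The 2 colours of a suspension are a pair, per the series' design text. This leaves 1 residual degree of freedom, and the common dispersion was 1.47. A p-value for colour reflects how far the 2 pairs, of different sex, vary, and a spread that edgeR shares among genes. A p-value for sex reflects how far the 2 colours vary, and the same shared spread. It holds no spread between suspensions of a sex. The fit was also run on simulated counts. These had a far lower spread than the data, so that run cannot tell what the fit can find here. DESeq2 1.42.0 and limma 3.58.1 were alternatives.

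Log2 ratios used a prior count of 2, and the 2-fold rule is applied to them. Folds of single genes used none and carry an exact 95% binomial interval. Against 0 counts the fold is a bound, taken with 3 counts in place of 0 and marked "at least", and no fold is given where both libraries had at most 3. PCR reads without molecular identifiers are not independent, so intervals and bounds cover counting error only. Members with 10 CPM or more in some library are given with every value, the others by range and count or where they meet the 2-fold rule. Partners were named when the higher colour reached 10 CPM in each of its libraries and the 2-fold rule held the same way in both suspensions, with Kdr, Flt1 and Vegfa in any case. Members and lists were chosen with earlier results of these data known. Leaving out each library, other scalings, filters and prior counts, and each suspension alone (chosen after seeing the data) were tried.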

Additional observations from a re-analysis of the deposited data

Results flagged for a closer look

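For 8 of the 18 tested members the male and the female suspension pointed opposite ways. The share of all tested genes that did so was not counted, so the 8 are not read as a trait of the family. At least 2-fold apart in opposite directions were 2 members, beside 19.2% of all tested genes. This difference was not tested, since each suspension holds 1 library of each colour. GFP cells were the higher in the male suspension for 4 of them. The log2 ratio of GFP over tdTomato cells was 0.64 in the male and −5.04 in the female suspension for Nrp1, and 1.86 in the male and −0.90 in the female suspension for Plxnb2. It was 1.34 in the male and −2.04 in the female suspension for Sema3d, and 7.06 in the male and −4.84 in the female suspension for Sema4c. For the other 4, GFP cells were the higher in the female suspension. The ratio was −5.43 in the male and 0.21 in the female suspension for Plxnb1, and −1.72 in the male and 0.93 in the female suspension for Plxnd1. It was −0.31 in the male and 0.09 in the female suspension for Sema3c, and −1.04 in the male and 0.22 in the female suspension for Sema3f. With library totals in place of TMM the female ratio of Sema3c was −0.12, and those of Plxnb1 and Sema3f were at 0 (−0.00 and 0.00). The male GFP library was above the female GFP library for 5 of the 8 members and below it for 3 (Plxnb1, Plxnd1 and Sema3c). For this too no share of all tested genes was counted.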

How the results depend on the processing

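DESeq2 called 1157 genes for colour and 140 for sex where edgeR called 0. Without the filter on low counts edgeR called 2 genes for sex. Leaving out 1 library gave 0 to 0 edgeR calls for colour and for sex, and the fit with no replicate block called 0; since so small a design made no call to begin with, these counts say nothing about stability. The number of members at least 2-fold higher in male cells of both colours was 1 at a minimum of 50 counts. In the male suspension alone, 11 members were lower and 4 higher in GFP cells. The median log2 ratio of the tested members in the male suspension was −1.60 with DESeq2 size factors, −1.87 with library totals, −0.47 without the filter, −0.92 at a minimum of 50 counts and −2.31 with a prior count of 0.5. In the female suspension it was −1.59, −1.90, −0.77, −4.38 and −1.82 under the same settings. The median of all tested genes also moved with the scaling, from −1.199 with library totals to −0.783 with size factors in the male suspension, and from −0.479 to −0.148 in the female one. Of the 15 members with every value given, 1 (Sema3c) changed sign with scaling or prior count, and 10 changed the sign of their mean ratio when a library was left out. Plxna1, Plxna2, Plxna4, Sema3a and Sema3b were the 5 that did not, and the share of all tested genes that did not was not counted. Leaving out a library breaks its pair and sets libraries of different suspensions against each other, so these values also carry the difference between suspensions. The cause of the other changes was not tested. Depth limits the low members: 3 counts correspond to 0.319 and 0.238 CPM in male and female GFP cells, and to 0.216 and 0.201 CPM in male and female tdTomato cells.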

Other observations

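Among the 43 tested partners of the family, DESeq2 called 2 for sex, Vegfc and Pak1, beside 0.930% of all tested genes. With edgeR 0 were called. Vegfc, a ligand of lymphatic VEGF receptors that also binds Nrp2, had 0 CPM in male and 6.57 CPM in female GFP cells, and 0 CPM in male and 28.4 CPM in female tdTomato cells. It was at least 20.6-fold lower in male GFP cells and at least 132-fold lower in male tdTomato cells (DESeq2 adjusted p 0.0292, edgeR adjusted p 1). Pak1, a kinase activated by Rac, had 0.106 CPM in male and 44.3 CPM in female GFP cells, and 0 CPM in male and 9.70 CPM in female tdTomato cells (DESeq2 adjusted p 0.0258, edgeR adjusted p 1). Both were named after their values were seen. With 1 suspension for each sex, sex and suspension cannot be told apart in either, and these p-values hold no spread between suspensions of a sex.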
